A study of Mus musculus with 25 samples.

Results

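Mouse bone marrow-derived macrophages (BMDMs) that had been primed with interferon-γ (IFN-γ) and then kept with lipopolysaccharide (LPS) for 12 h were compared with unstimulated BMDMs, and the functions that differed were described across all genes. The comparison used 6 of the 25 samples of the series, 3 control and 3 at 12 h, chosen by their labels alone. The 6 samples compared came from bone marrow of C57BL/6 mice with no allele or transgene named, differentiated for 4 days with macrophage colony-stimulating factor (M-CSF) at 25 ng/ml. The control received no IFN-γ and no LPS and is labelled as cultured for 4 h, and the stimulated cells received IFN-γ at 100 U/ml and LPS at 100 ng/ml, so treatment and length of culture changed together. The cells at 12 h also differed from the control in both agents, and the effect of IFN-γ cannot be told apart from that of LPS, since LPS alone was not analysed here. The study's methods describe the triplicates of a condition as biological, taken from independent RNA, but nothing in the labels ties them to separate mice or cultures. The p-values thus measure the spread between replicates over the 15 samples fitted, and how much of it is technical is not known. RNA was depleted of ribosomal RNA and sequenced with strand kept, and the deposited counts of reads per gene on the sense strand were used.

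LPS, a component of the outer membrane of Gram-negative bacteria, is sensed by Toll-like receptor 4 with its coreceptors CD14 and MD-2. Its adapters MyD88 and TRIF turn on NF-κB and AP-1 and, through IRF3, type I interferon. IFN-γ acts through JAK kinases and STAT factors, and in macrophages it raises antigen presentation and cell-autonomous defence and strengthens the later answer to LPS, a state known as classical activation.

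The 6 libraries held 2516675 to 2903776 sense counts. Between 23.7% and 38.1% of these fell on Rn45s, the ribosomal RNA precursor gene, with 34.9% to 38.1% in the controls and 32.6%, 30.4% and 23.7% in the samples at 12 h. Rn45s was removed, which left 1678252 to 2077653 counts. The first principal component held 90.5% of the variance of the 6 libraries and separated 12 h from the control. The second held 3.51% and set replicate 3 at 12 h apart from the other samples at that time. Of 4559 genes with a mean of at least 50 counts at 12 h, replicate 3 lay at least 1.5-fold above both other replicates for 79 and at least 1.5-fold below both for 98, against 6 and 14 for replicate 1 and 2 and 11 for replicate 2. Between pairs of replicates, chi-square per degree of freedom, which is 1 for counting error alone, was 1.54 to 2.08 in the controls. At 12 h it was 1.33 for replicates 1 and 2, and 4.93 and 3.93 for each of these with replicate 3. Most pairs thus spread little beyond counting error, and whether they are separate cultures was not tested. Results that lose their call without replicate 3 at 12 h are marked below. The macrophage label was borne out by 10 of 10 markers with counts (among them Adgre1, Csf1r, Cd68, Lyz2 and Mertk), which summed to 21949 to 23524 CPM (counts scaled to a common library size) in the controls and 18293 to 21527 CPM at 12 h. Markers of T cells, B cells, NK cells, dendritic cells, mast cells and erythroid cells summed to at most 12.4 CPM in any of the 6 samples, with Cd3d, Cd3e, Cd3g, Cd79a, Flt3, Gzma and Cpa3 at 0 counts. Neutrophil markers summed to 12.7 to 22.3 CPM in the controls and 25.2 to 26.8 CPM at 12 h, with Elane and Mpo at 0, and fibroblast markers, mainly Col1a2, to 67.9 to 100.4 and 51.5 to 66.3 CPM. Fewer cells of a type and less RNA per cell cannot be told apart in these samples.

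At 12 h, 849 of 9568 genes tested (8.87%) were upregulated and 806 (8.42%) were downregulated. The test was the quasi-likelihood F test of edgeR, with p-values adjusted by Benjamini-Hochberg over all genes tested, and the cutoffs were an adjusted p of 0.01 or less and a log2 fold change that reached 1.5 in size. A log2 fold change is that of 12 h over control, and its error is the standard error (SE) of the fit. The median over all genes tested was -0.03. Upregulated genes had a median log2 fold change of 3.02, and 430 of them passed 3 and 185 passed 5. Downregulated genes had a median of -2.16, with 187 below -3 and 31 below -5. The upregulated genes took 3.38% to 3.44% of the counts of the control libraries and 28.3% to 29.8% at 12 h. The downregulated genes took 11.9% to 12.5% and 2.49% to 2.62%. All 3 samples at 12 h lay above all 3 controls for 2908 genes (30.4% of those tested) and below for 2973 (31.1%), and 848 of the 849 upregulated and 804 of the 806 downregulated genes were among these. Without replicate 3 at 12 h, 869 genes were up and 843 down. With the cutoff of 1.5 itself as the null hypothesis, 621 were up and 354 down.

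**Figure D1:**
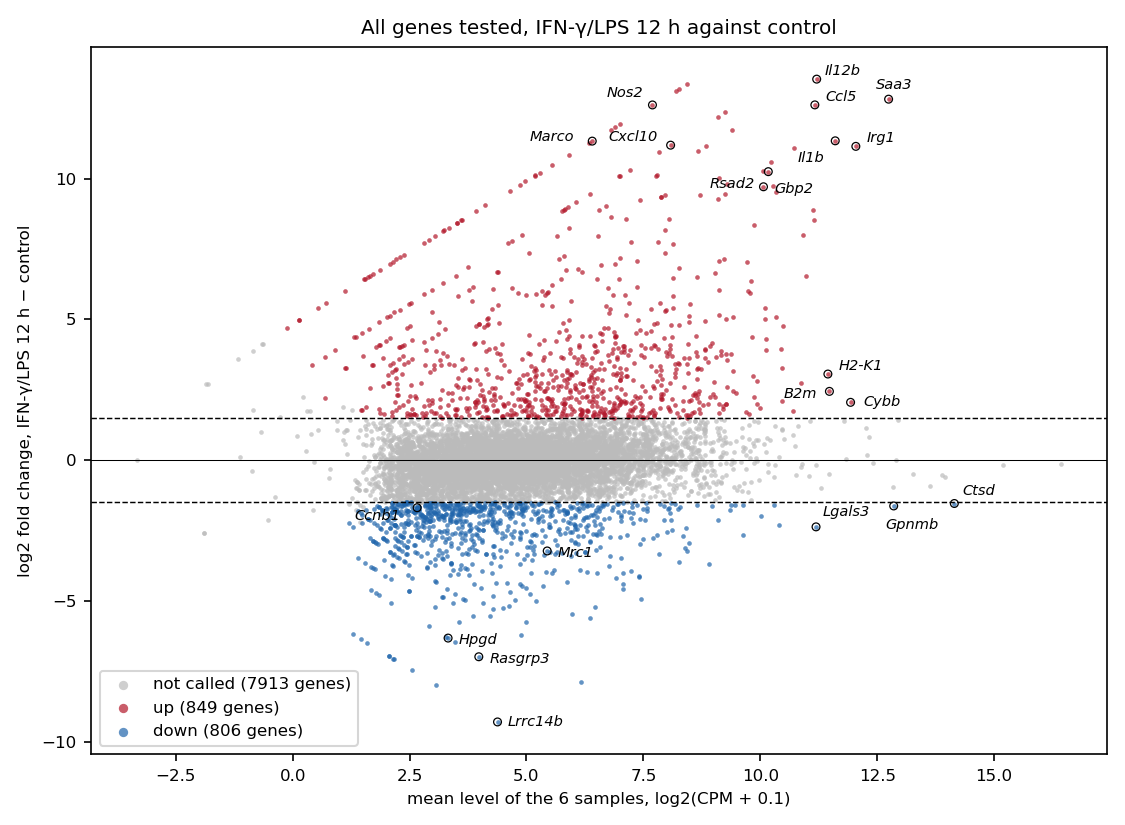
Log2 fold change of 12 h over control (vertical axis) against the mean level of the 6 samples as log2(CPM + 0.1) (horizontal axis), with 1 point per gene tested. The 849 upregulated genes are red, the 806 downregulated genes blue and all other genes grey, dashed lines mark a log2 fold change of 1.5 in either direction, and rises reach further from 0 than falls.

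Genes were then read in 44 lists of related function, with 1612 members tested. In counts of list members, up, down, rose and fell mean past both cutoffs, and smaller changes are not counted. Beside 8.87% up and 8.42% down over all genes, 18 of 18 guanylate-binding proteins and immunity-related GTPases and 72 of 77 antiviral effectors were upregulated, and 30 of 56 mitosis genes were downregulated. A gene high in only 1 group passes the filter on low counts, so members absent from the controls could hardly be called down. Members too low to be tested numbered 4 of 22 in the first list and 4 of 81 in the second. They were 33 of 89 for mitosis, 11 of 30 for chemokines and 14 of 49 for cytokines. Shares called are therefore descriptions of the members tested. None of 74 ribosomal protein genes, 73 respiratory chain and ATP synthase genes, 58 ribosome biogenesis genes and 10 pentose phosphate genes passed the cutoffs in either direction, although 6, 28, 8 and 3 of them had a false discovery rate of at most 0.01 with a higher level at 12 h and 15, 2, 1 and 3 with a lower level, against 23.9% and 23.4% of all genes. The 44 lists hold 376 of the 849 upregulated and 169 of the 806 downregulated genes.

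**Figure D2:**
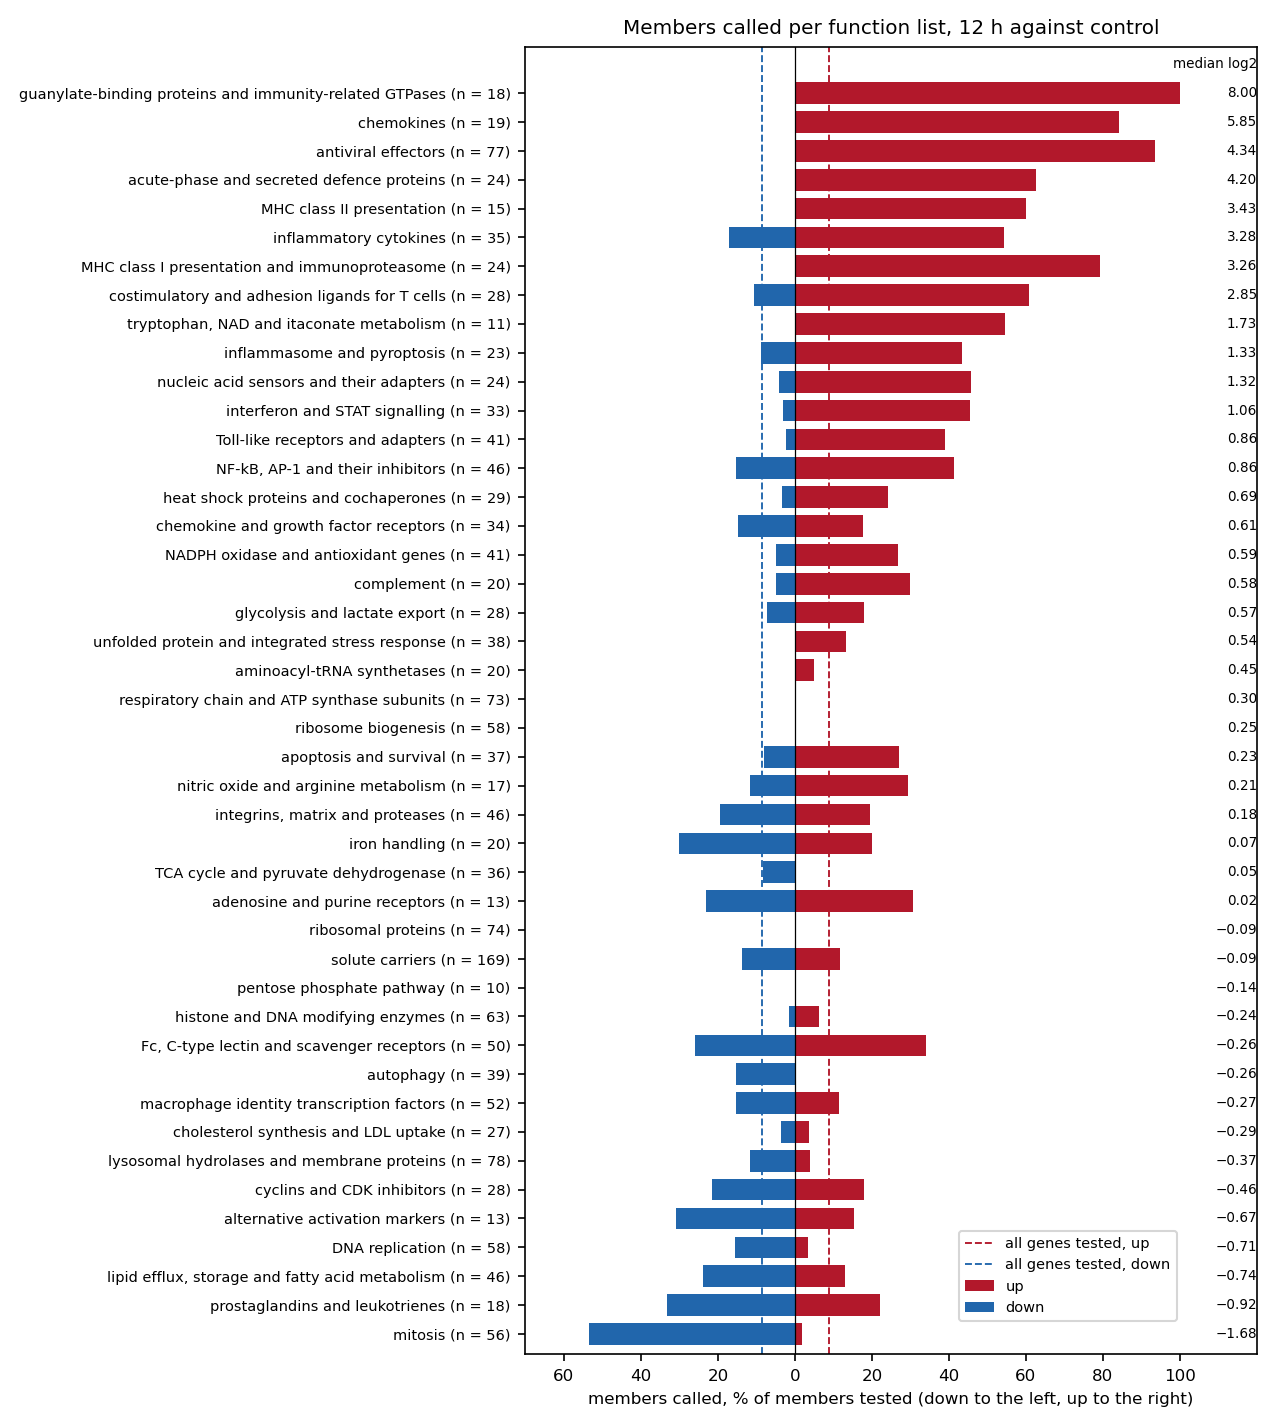
Share of the tested members of each of the 44 function lists that were called up (red, to the right) or down (blue, to the left) at 12 h, in percent, ordered by the median log2 fold change printed at the right. Dashed lines give the share over all 9568 genes, 8.87% up and 8.42% down, and the bars run from 100% up for the guanylate-binding proteins and immunity-related GTPases to 30 of 56 members down for mitosis.

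The largest rises by fitted fold change among genes at 20 CPM or more were Il12b, Oasl1, Ifi44, Ifit1bl1, Saa3, Ccl5, Nos2, Cfb, Mx1, Tgtp2, Pydc4 and Cxcl9. Il12b (chr11:44400063-44414033 on mm10, plus strand) encodes the p40 subunit shared by interleukin-12 and interleukin-23. It stood at 0, 0.507 and 0.495 CPM in the controls and 5595, 5443 and 3132 CPM at 12 h, a pooled ratio of 14092 (95% counting interval 3901 to 116368). Where a group had no count, the fold was taken against 3 counts over that group and is a lower bound, and where it had 1 to 3 counts, the ratio is given with an exact interval that covers counting error only. Oasl1, an inhibitor of Irf7 translation, had no count in the controls and 684, 659 and 715 CPM at 12 h, at least 1376-fold higher. Ifi44 was at 0 in the controls and at 504, 526 and 802 CPM, at least 1230.5-fold higher, and Ifit1bl1 at least 1189.9-fold, with replicate 3 the highest for both. The most abundant upregulated transcript was that of serum amyloid A3, Saa3, an acute-phase protein, at 1.49, 2.03 and 1.98 CPM in the controls and 11265, 11470.1 and 18414 CPM at 12 h (log2 fold change 12.82 ± 0.26, adjusted p = 1.95e-20). Next came Irg1, the enzyme that makes itaconate, Cybb, the catalytic subunit of the phagocyte NADPH oxidase, Il1b, H2-K1 and B2m, each of them at 4275 CPM or more in every sample at 12 h.

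Under the same limit of 20 CPM, here in the controls, the largest falls were those of Lrrc14b, Mamdc2, Rasgrp3, Zfp395, St6gal1, Tmem37, Pald1, Cd28, Pde3b, Trim47, Rnf150 and Susd3. Lrrc14b had 38.3, 43.1 and 43.05 CPM in the controls and no count at 12 h, at least 76.4-fold lower. Rasgrp3, a guanine nucleotide exchange factor for Ras, had 28.3, 39.5 and 25.7 CPM in the controls and 0.526, 0 and 0 CPM at 12 h, a pooled ratio of 172 (95% counting interval 30.5 to 6833) of control over 12 h. St6gal1, which adds terminal sialic acid to glycans, was at 57.6, 54.2 and 62.8 CPM in the controls and 0.526, 1.76 and 0 CPM at 12 h (log2 fold change -6.21 ± 0.34, adjusted p = 3.16e-21). Cd28, best known as the costimulatory receptor of T cells, was read at 156, 161 and 165 CPM in the controls and 3.68, 2.35 and 3.64 CPM at 12 h (log2 fold change -5.60 ± 0.21, adjusted p = 4.24e-28), while Cd3d, Cd3e and Cd3g had no count in any of the 6 samples. Each of the 12 genes was lower in all 3 samples at 12 h than in all 3 controls. The most abundant downregulated transcripts were Ctsd, Gpnmb, Lgals3, Lipa, Sepp1 and Lpl. Ctsd, the lysosomal protease cathepsin D, had 26769.9, 26536 and 27829 CPM in the controls and 9666, 9448 and 8796 CPM at 12 h (log2 fold change -1.54 ± 0.08, adjusted p = 8.32e-22, and -1.48 without replicate 3 at 12 h, which is short of the cutoff). Lgals3, which encodes the galactose-binding lectin galectin-3, fell from 4149, 3973 and 3637 CPM to 771, 805 and 700.3 CPM (log2 fold change -2.37 ± 0.09, adjusted p = 3.48e-28). Gpnmb, a transmembrane glycoprotein of lysosomes, went from 12307, 11813 and 9403 to 3710.2, 3512 and 3635 CPM, and Sepp1, the plasma selenium carrier selenoprotein P, from 1857, 1926 and 1874 to 569.6, 595 and 729 CPM (log2 fold change -1.58, and -1.49 without replicate 1 at 12 h).

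**Figure D3:**
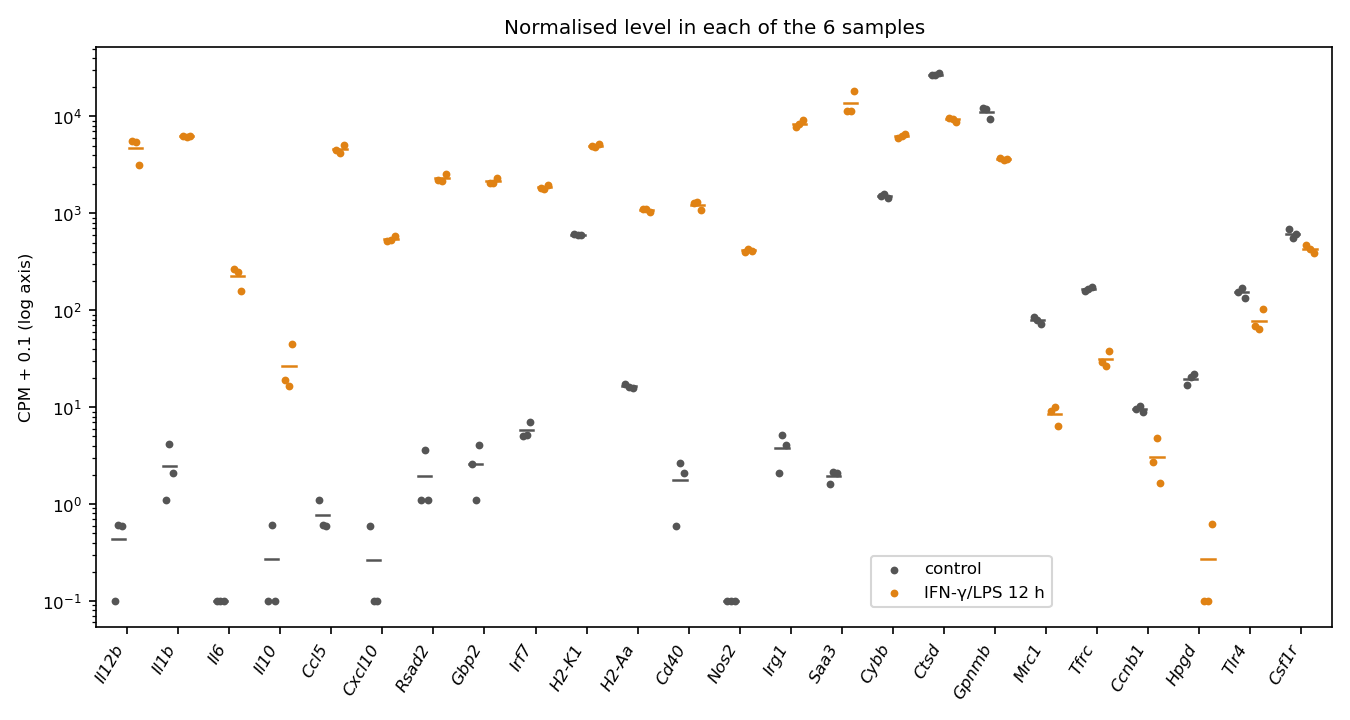
Level of 24 genes in each of the 6 samples as CPM + 0.1 on a log axis, with grey points for the 3 controls, orange points for the 3 samples at 12 h and a short line at each mean. A point at the bottom line is a sample with no count. The groups do not overlap for any of these genes, and Il12b, Il6, Il10 and Saa3 show the distance of replicate 3 at 12 h from the other samples.

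Cytokine transcripts rose widely. Of 35 cytokine genes tested, 19 were upregulated and 6 downregulated, with a median log2 fold change of 3.28, or 2.29 with genes absent in one group set at their bound. Il1b, the main pyrogenic cytokine of macrophages, had 0.994, 4.05 and 1.98 CPM in the controls and 6309, 6100.3 and 6240.0 CPM at 12 h (log2 fold change 11.34 ± 0.20, adjusted p = 1.43e-33), and Il1a was at 3489, 3304 and 3374 CPM at 12 h (11.08 ± 0.21). Tumour necrosis factor, Tnf, was already present in the controls at 26.3, 25.8 and 26.2 CPM and reached 1713, 1844 and 1496 CPM (log2 fold change 6.01 ± 0.12, adjusted p = 5.79e-39). Il6 had no count in the controls and 268, 246 and 156 CPM at 12 h, at least 445-fold higher, with replicate 3 the lowest. Both Il12a, the p35 partner of Il12b, and Il27 were absent from the controls and reached 21.6, 19.4 and 14.6 and 175, 169 and 144 CPM. Of the cytokines that restrain inflammation, Il10 had 0, 0.507 and 0 CPM in the controls and 18.9, 16.4 and 44.7 CPM at 12 h, with replicate 3 the highest, and Il1rn, the interleukin-1 receptor antagonist, had 8.45, 13.7 and 14.3 CPM in the controls and 3993, 3891 and 5795 CPM at 12 h (log2 fold change 8.54 ± 0.23, adjusted p = 5.38e-17). Il1rn was thus of the same order as Il1b at 12 h in raw CPM, which do not account for gene length. The cytokines that fell were growth and tissue factors, Igf1, Tnfsf12, Hgf, Pdgfa and Pdgfb, together with Il16. Igf1, insulin-like growth factor 1, went from 865, 882 and 914 CPM to 65.2, 56.3 and 81.7 CPM (log2 fold change -3.70 ± 0.12, adjusted p = 3.57e-29).

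Among chemokines, 16 of 19 tested were up and none down, with a median of 5.85 (5.25 at the bounds). Ccl5, which draws T cells and monocytes, had 0.994, 0.507 and 0.495 CPM in the controls and 4504, 4214 and 5069.9 CPM at 12 h (log2 fold change 12.62 ± 0.21, adjusted p = 5.16e-39). The ligands of CXCR3, which draw activated T cells, were Cxcl9 at 1459, 1499 and 1088 CPM, Cxcl10 at 514, 530.4 and 581 CPM and Cxcl11 at 48.4, 42.8 and 96.2 CPM, against at most 0.507 CPM in any control. Pooled ratios were 4032 (95% counting interval 1116 to 33296) for Cxcl9 and 3257 (95% counting interval 584 to 128677) for Cxcl10. Ccl22, a ligand of CCR4, had 0, 0 and 0.495 CPM in the controls and 294, 299.8 and 166 CPM at 12 h. Neutrophil-attracting Cxcl1 had 1 count over the controls and 19.5, 31.1 and 15.6 CPM at 12 h. Its relative Cxcl2 rose by 7.98 ± 0.39, and the monocyte-attracting Ccl2, Ccl3 and Ccl4 by 5.85 ± 0.22, 5.95 ± 0.15 and 3.69 ± 0.18 on the log2 scale. Receptors moved both ways, with 6 up and 5 down of 34 (17.6% and 14.7%, beside 8.87% and 8.42% over all genes). Ccr7, the receptor that directs cells to lymph nodes, was at 0 in the controls and at 11.04, 17.6 and 20.3 CPM, at least 32.6-fold higher. Il15ra, which presents interleukin-15, had 1.99, 3.04 and 1.98 CPM in the controls and 109, 116 and 139 CPM at 12 h (log2 fold change 5.67 ± 0.23, adjusted p = 1.57e-26). Cxcr4, the receptor that holds cells in bone marrow, fell from 323, 326 and 363 CPM to 9.47, 16.4 and 7.28 CPM (log2 fold change -4.95 ± 0.16, adjusted p = 1.49e-30), and Cx3cr1, the fractalkine receptor, from 36.3, 43.6 and 39.6 to 8.41, 8.21 and 15.6 CPM (-1.87). Csf1r, the receptor of M-CSF, was not called, at 682, 561 and 610.1 CPM in the controls and 468, 425 and 393 CPM at 12 h (log2 fold change -0.53).

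The interferon-inducible defence genes had the highest shares of upregulated members among the 44 lists. Guanylate-binding proteins and immunity-related GTPases, which attack the vacuoles of intracellular pathogens, were all upregulated, with a median log2 fold change of 8.004 (7.27 at the bounds). Gbp2 had 2.48, 1.01 and 3.96 CPM in the controls and 2073, 2047 and 2313 CPM at 12 h (log2 fold change 9.71 ± 0.17, adjusted p = 1.65e-41). Gbp5 had 1.99, 1.01 and 1.48 CPM in the controls and 2257, 2414 and 2530.0 CPM at 12 h (log2 fold change 10.58 ± 0.18, adjusted p = 1.65e-41). Irgm1, a regulator of the family with a measurable level before stimulation, had 38.8, 30.4 and 36.1 CPM in the controls and 726, 711 and 817 CPM at 12 h (log2 fold change 4.42 ± 0.12, adjusted p = 2.91e-34). The lowest rise in the list was that of Gbp8, at 3.37 ± 0.48. Members of this list are close paralogues, and reads shared between Tgtp1 and Tgtp2 or between neighbouring Gbp genes may have been left uncounted, so single members are less certain than the list. The antiviral effectors, 72 of 77 up and none down, had a median of 4.34. Rsad2, or viperin, which makes a chain-terminating nucleotide, had 0.994, 3.55 and 0.99 CPM in the controls and 2193, 2180.3 and 2537 CPM at 12 h (log2 fold change 10.25 ± 0.21, adjusted p = 1.87e-31). Isg15, a ubiquitin-like modifier, had 1.99, 1.01 and 1.98 CPM in the controls and 1024, 976 and 1253 CPM at 12 h (log2 fold change 9.29 ± 0.20, adjusted p = 7.06e-37) and Ifit1, which binds viral RNA ends, 0.497, 3.04 and 1.48 CPM in the controls and 2102, 1950.3 and 2354 CPM at 12 h (log2 fold change 10.27 ± 0.20, adjusted p = 1.25e-34). Usp18, which removes Isg15 and blocks the type I interferon receptor, rose to 799.9, 764 and 951 CPM (9.41 ± 0.19), and Mx1, a dynamin-like GTPase whose gene is known to be defective in C57BL/6 mice, to 980.3, 951 and 1341 CPM from 0, 0.507 and 0 CPM.

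The stretch just before the start of such genes is where interferon-responsive elements are known to lie, and 5 are shown because the genes are among those described above and the element is visible. The sequences are RefSeq windows on GRCm38.p6 (the mm10 assembly), written 5′ to 3′ on the strand of the gene, and capitals mark a match to GAAANNGAAA on either strand, the core of the interferon-stimulated response element (ISRE), with overlapping matches run together.
Rsad2, chr12:26456533-26456602, minus strand: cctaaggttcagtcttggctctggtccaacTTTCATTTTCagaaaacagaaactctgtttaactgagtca
Ifit1, chr19:34640755-34640843, plus strand: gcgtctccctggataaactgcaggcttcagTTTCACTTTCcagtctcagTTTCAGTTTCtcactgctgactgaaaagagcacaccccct
Isg15, chr4:156200845-156200926, minus strand: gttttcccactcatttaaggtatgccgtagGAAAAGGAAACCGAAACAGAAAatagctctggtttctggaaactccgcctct
Tgtp2, chr11:49064243-49064312, minus strand: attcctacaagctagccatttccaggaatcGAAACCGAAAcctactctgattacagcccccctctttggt
Gbp5, chr3:142496739-142496808, plus strand: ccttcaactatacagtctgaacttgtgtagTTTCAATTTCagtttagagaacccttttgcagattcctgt
The match furthest from the start began 120 bases before it in Rsad2, 104 in Ifit1, 78 in Isg15, 70 in Tgtp2 and 165 in Gbp5. Ifit1 held 2 matches and Isg15 held 3 that overlap. A window of the 250 bases before the start was found for 7396 of the genes tested, 646 of those up and 590 of those down. The ISRE core was in 9.52% of 840 windows of upregulated genes, in 2.26% of 798 windows of downregulated genes, in 2.30% of 7820 windows of genes tested and not called, and in 2.98% of all 32851 windows. Within lists it was in 9 of 11 windows of the guanylate-binding proteins and immunity-related GTPases and in 26 of 80 windows of the antiviral effectors. Other lists held it less often, with 3 of 31 windows of interferon and STAT signalling and 1 of 11 of MHC class II. It was also in 6 of 64 windows (9.38%) of the ribosomal proteins, of which none was called. The core of the γ-activated site, TTCNNNGAA, was in 8.33% of the windows of upregulated genes, 5.01% of downregulated, 5.86% of uncalled and 7.02% of all windows. These shares are descriptions of letters in the windows, without a test, and a match is not a bound site.

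Sensors and relays of the interferon pathway followed in part. Of 24 nucleic acid sensors and adapters, 11 rose and 1 fell (median 1.32). Zbp1, a sensor of Z-form nucleic acid, had 2.48, 1.01 and 0.495 CPM in the controls and 523, 536 and 523 CPM at 12 h (log2 fold change 8.56 ± 0.19, adjusted p = 4.97e-37), and the RNA helicases Ifih1 and Ddx58 (MDA5 and RIG-I) rose by 3.96 ± 0.13 and 4.89 ± 0.30. Tmem173, or STING, the adapter of DNA sensing, was not called at -0.61 ± 0.19. In interferon and STAT signalling, 15 of 33 rose and 1 fell (median 1.06). Irf7, the master factor of type I interferon, went from 4.97, 5.07 and 6.93 CPM to 1814, 1785 and 1969 CPM (log2 fold change 8.34 ± 0.15, adjusted p = 7.29e-41). Jak2 and Stat2 rose by 3.91 ± 0.11 and 4.04 ± 0.13, and Irf1 by 3.35 ± 0.11. The feedback inhibitors rose with them: Socs3, which binds gp130 and dampens interleukin-6 signals, from 0, 1.52 and 0.495 to 291, 256 and 289 CPM (log2 fold change 8.57 ± 0.24, adjusted p = 2.85e-33) and Socs1, the inhibitor of JAK kinases, from 0, 2.53 and 1.48 to 65.2, 80.4 and 101 CPM (log2 fold change 5.88 ± 0.30, adjusted p = 6.39e-22). Socs6 was the member that fell, by 2.30 on the log2 scale.

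The NF-κB and AP-1 list moved in both directions, with 19 upregulated and 7 downregulated members of 46 (median 0.86). Nfkbia, the inhibitor IκBα and a direct NF-κB target, had 41.7, 43.6 and 29.2 CPM in the controls and 668, 667 and 651 CPM at 12 h (log2 fold change 4.12 ± 0.11, adjusted p = 2.58e-33). Tnfaip3 (A20), a deubiquitinase that ends the signal, had 50.7, 44.1 and 61.8 CPM in the controls and 953, 946 and 925 CPM at 12 h (log2 fold change 4.17 ± 0.11, adjusted p = 2.91e-34), and Relb, the non-canonical subunit, rose by 2.59 ± 0.15. Junb, an AP-1 subunit, was also among the 19. The immediate-early factors Jun, Egr2, Myc and Fos were among the 7 that fell. Jun had 97.4, 112 and 92.5 CPM in the controls and 19.98, 16.4 and 27.1 CPM at 12 h (log2 fold change -2.24). Egr2 had 16.9, 26.3 and 14.8 CPM in the controls and 1.58, 1.76 and 1.04 CPM at 12 h (-3.68) and Myc 8.45, 15.7 and 9.401 CPM in the controls and 2.63, 2.35 and 2.08 CPM at 12 h (-2.21). Fos, which pairs with Jun, fell by 1.89 on the log2 scale, or by 1.48 without control replicate 3, which is short of the cutoff. In 3 promoters of this group and of the cytokines, capitals mark a match to GGGNNTTTCC on either strand, a core of κB elements.
Nfkbia, chr12:55492648-55492706, minus strand: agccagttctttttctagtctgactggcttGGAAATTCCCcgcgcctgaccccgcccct
Tnfaip3, chr10:19015411-19015452, minus strand: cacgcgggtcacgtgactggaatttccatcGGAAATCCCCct
Il6, chr5:30013040-30013109, plus strand: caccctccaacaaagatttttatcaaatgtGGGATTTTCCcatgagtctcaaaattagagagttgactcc
The match lay 29 bases before the start in Nfkbia, 12 in Tnfaip3 and 44 in Il6. This core was in 3.21% of the windows of upregulated genes, 1.13% of downregulated, 1.47% of uncalled and 1.41% of all windows. Within lists it was in 6 of 49 windows of NF-κB, AP-1 and their inhibitors, 4 of 36 of cytokines and 4 of 12 of chemokines.

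Among Toll-like receptors and their adapters, 16 of 41 rose and 1 fell (median 0.86). The LPS coreceptor Cd14 had 249, 257 and 293 CPM in the controls and 2529.6, 2531 and 2597 CPM at 12 h (log2 fold change 3.26 ± 0.10, adjusted p = 1.29e-31), and Tlr2, the receptor of bacterial lipoproteins, 72.1, 78.02 and 96.5 CPM in the controls and 813, 822 and 682 CPM at 12 h (log2 fold change 3.23 ± 0.12, adjusted p = 6.56e-25). Tlr4 itself was not called, with 156, 169.7 and 133 CPM in the controls and 68.9, 63.4 and 102 CPM at 12 h, a log2 fold change of -0.96 ± 0.14. Tlr13, a sensor of bacterial ribosomal RNA, was the member that fell, by 1.59 on the log2 scale, and by 1.48 without replicate 1 at 12 h. The adapter Myd88 rose by 2.24 ± 0.13, the signalling adapter Traf1 by 8.16 ± 0.19, the peptidoglycan sensors Nod1 and Nod2 by 4.17 ± 0.16 and 3.79 ± 0.22, and Irak3, an inhibitor of the pathway, by 3.34 ± 0.14.

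Most genes of antigen presentation were upregulated. In class I, 19 of 24 genes tested were up and none down (median 3.26). H2-K1, a classical heavy chain, had 606, 591 and 596 CPM in the controls and 4936, 4866 and 5139 CPM at 12 h (log2 fold change 3.06 ± 0.09, adjusted p = 8.07e-33) and B2m, the invariant light chain, 830.4, 936 and 894 CPM in the controls and 4275, 4483 and 5698 CPM at 12 h (log2 fold change 2.44 ± 0.10, adjusted p = 1.75e-25). The peptide transporter Tap1 had 21.4, 22.3 and 19.8 CPM in the controls and 595, 613 and 564 CPM at 12 h (log2 fold change 4.799 ± 0.12, adjusted p = 2.74e-34). The immunoproteasome subunit Psmb9 had 18.9, 16.7 and 17.8 CPM in the controls and 222, 219 and 241 CPM at 12 h (log2 fold change 3.67 ± 0.13, adjusted p = 2.62e-28), and Nlrc5, the class I transactivator, rose by 3.81 ± 0.12. H2-Q genes are near-identical copies, and the rise of H2-Q4 by 5.57 ± 0.14 is uncertain for that reason. In class II, 9 of 15 rose and none fell past the cutoffs (median 3.43), while 4 had an adjusted p of 0.01 or less with a lower level at 12 h. The lowest of these was Ifi30, a lysosomal thiol reductase, at -1.49 ± 0.17, which was called down at -1.54 without replicate 2 at 12 h and at -1.51 without control replicate 3. H2-Aa had 17.4, 16.2 and 15.8 CPM in the controls and 1101, 1115 and 1042 CPM at 12 h (log2 fold change 6.04 ± 0.12, adjusted p = 8.09e-39) and its partner chain H2-Ab1 10.9, 11.1 and 15.8 CPM in the controls and 1736, 1727 and 1514 CPM at 12 h (log2 fold change 7.03 ± 0.13, adjusted p = 1.42e-39). Cd74, the invariant chain that loads with them, had 43.2, 44.1 and 41.6 CPM in the controls and 3986, 4070.2 and 3872 CPM at 12 h (log2 fold change 6.53 ± 0.11, adjusted p = 1.65e-41). Ciita, the class II transactivator, had 0.497, 1.01 and 1.98 CPM in the controls and 37.9, 46.4 and 14.05 CPM at 12 h (log2 fold change 4.72 ± 0.51, adjusted p = 6.04e-08), with replicate 3 the lowest of the 3 at 12 h. Costimulatory and adhesion ligands for T cells gave 17 up and 3 down of 28 (median 2.85, 2.39 at the bounds). Cd40, which receives the help of T cells, had 0.497, 2.53 and 1.98 CPM in the controls and 1275, 1294 and 1075 CPM at 12 h (log2 fold change 9.45 ± 0.19, adjusted p = 7.31e-38). Cd86, a ligand of CD28, had 9.44, 5.57 and 7.42 CPM in the controls and 181, 211 and 195 CPM at 12 h (log2 fold change 4.69 ± 0.17, adjusted p = 3.42e-28). Cd274 (PD-L1), which inhibits T cells, had 74.5, 79.5 and 67.8 CPM in the controls and 2126, 2272 and 3082 CPM at 12 h (log2 fold change 5.07 ± 0.13, adjusted p = 1.38e-28). The members that fell were Havcr2 (TIM-3), 4632428N05Rik (VISTA) and Cd276, and of these 4632428N05Rik was the most abundant, at 658, 604 and 631 CPM in the controls and 82.04, 75.7 and 88.96 CPM at 12 h.

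**Figure D4:**
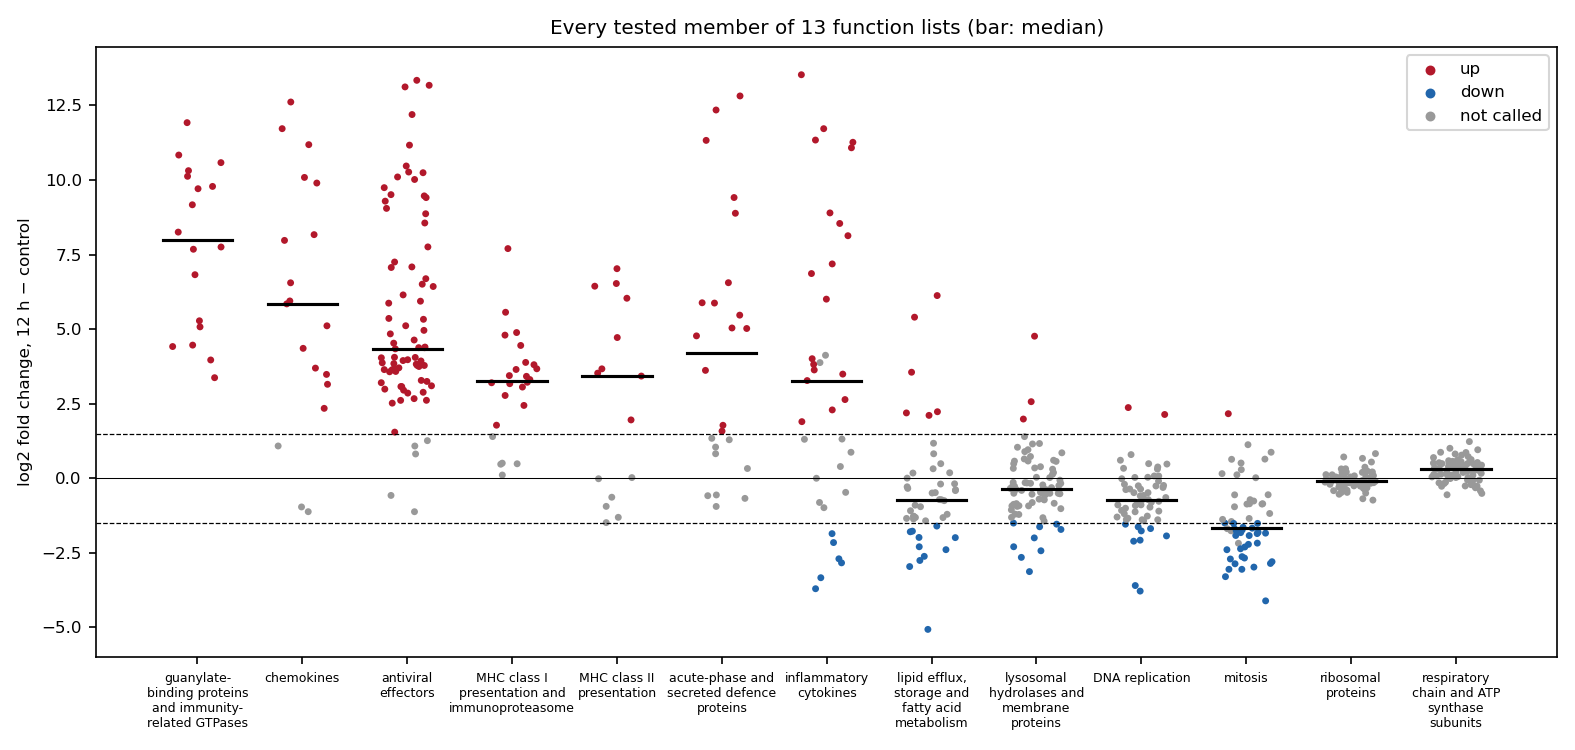
Log2 fold change of 12 h over control for every tested member of 13 function lists, red where upregulated, blue where downregulated and grey where not called, with a bar at each median and dashed lines at 1.5 in either direction. The medians run from 8.004 for the guanylate-binding proteins and immunity-related GTPases to -1.68 for mitosis, and the ribosomal proteins and the respiratory chain stay between the dashed lines.

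Nos2, the inducible nitric oxide synthase, had no count in the controls and 402, 429 and 410.0 CPM at 12 h, at least 828-fold higher. Its arginine importer Slc7a2 had 12.9, 14.7 and 17.3 CPM in the controls and 3724, 3865 and 3909.8 CPM at 12 h (log2 fold change 7.99 ± 0.12, adjusted p = 5.18e-43), and Gch1, which makes its cofactor tetrahydrobiopterin, 20.9, 14.2 and 16.8 CPM in the controls and 156, 157 and 164 CPM at 12 h (log2 fold change 3.20 ± 0.15, adjusted p = 1.43e-23). Over the nitric oxide and arginine list, 5 rose and 2 fell of 17. Ass1, which recycles citrulline to arginine, is listed at 0 counts in all 6 samples. Such a 0, here and for Alox5 and Retnla, may also come from reads lost to several mapping positions or to overlapping annotation, which was not tested, so it is not read as lack of expression. Arg1 had 0 counts in the controls and 3 at 12 h and was not tested. In the tryptophan, NAD and itaconate list, 6 of 11 rose and none fell (median 1.73). Irg1 had 1.99, 5.07 and 3.96 CPM in the controls and 7846, 8284 and 9182 CPM at 12 h (log2 fold change 11.14 ± 0.17, adjusted p = 1.42e-42). Nampt, the rate-limiting enzyme of NAD salvage, had 238, 242 and 263 CPM in the controls and 985, 953 and 1041 CPM at 12 h (log2 fold change 2.004 ± 0.10, adjusted p = 4.80e-23). The NAD-consuming ectoenzyme Cd38 had 0.497, 0 and 0.99 CPM in the controls and 279.8, 297 and 448 CPM at 12 h, a pooled ratio of 688 (95% counting interval 235 to 3340.2). Ido1 had 0 counts in the controls and 3 at 12 h and was not tested.

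In glycolysis and lactate export, 5 of 28 rose and 2 fell (median 0.57). Slc2a6, a lysosomal hexose transporter, had 10.9, 7.600 and 11.9 CPM in the controls and 1061, 1029.7 and 997 CPM at 12 h (log2 fold change 6.65 ± 0.14, adjusted p = 2.10e-38) and Pfkfb3, which makes the activator fructose 2,6-bisphosphate, 48.2, 46.1 and 54.9 CPM in the controls and 509, 508 and 811 CPM at 12 h (log2 fold change 3.61 ± 0.18, adjusted p = 1.35e-13). Slc2a1, the glucose transporter GLUT1, had 20.4, 16.7 and 19.3 CPM in the controls and 54.2, 51.6 and 57.7 CPM at 12 h (1.53, and 1.47 without control replicate 2, which is short of the cutoff). Hk2, hexokinase, and Ldha, lactate dehydrogenase A, were not called at 0.92 ± 0.17 and 1.03 ± 0.09, and Ldhb fell by 2.19. None of 36 genes of the TCA cycle and pyruvate dehydrogenase rose past the cutoffs, although 6 had a false discovery rate of at most 0.01 with a higher level at 12 h and 7 with a lower level. Idh1, the cytosolic isocitrate dehydrogenase, Pdk4 and Pdp1, a kinase and a phosphatase of pyruvate dehydrogenase, fell, Idh1 from 59.6, 52.2 and 60.9 CPM to 9.47, 4.69 and 5.72 CPM (log2 fold change -3.09 ± 0.22, adjusted p = 6.36e-17). The mitochondrial enzymes Sdha and Cs were at -0.15 ± 0.11 and 0.12 ± 0.13. The median of the 73 respiratory chain and ATP synthase genes was 0.30.

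Lipid genes leaned downward, with 6 up and 11 down of 46 (median -0.74). Pparg, the nuclear receptor of fatty acids, had 31.3, 37.5 and 28.7 CPM in the controls and 1.58, 0.587 and 0.52 CPM at 12 h (log2 fold change -5.07 ± 0.36, adjusted p = 3.37e-17), and Abcg1, a cholesterol exporter, 115, 81.1 and 95.99 CPM in the controls and 19.5, 19.4 and 16.6 CPM at 12 h (log2 fold change -2.39 ± 0.17, adjusted p = 7.83e-17). Also lower were Lpl, which frees fatty acids from lipoproteins, Lipa, the lysosomal acid lipase, and Fabp4, a fatty acid carrier, by 1.98, 2.30 and 2.62 in turn on the log2 scale. Cd36, a fatty acid and scavenger receptor, had 1083, 1103 and 1005 CPM in the controls and 306, 324 and 419 CPM at 12 h (log2 fold change -1.60, and -1.496 without replicate 1 at 12 h). Acsl1, which activates long fatty acids, had 51.7, 53.2 and 47.01 CPM in the controls and 2044, 2082 and 2299 CPM at 12 h (log2 fold change 5.40 ± 0.11, adjusted p = 8.97e-39), and Dgat2, the last step of triglyceride synthesis, 0.497, 1.01 and 0.495 CPM in the controls and 42.6, 42.8 and 67.1 CPM at 12 h (log2 fold change 6.13 ± 0.37, adjusted p = 1.47e-19). Cholesterol synthesis and LDL uptake showed 1 gene up and 1 down of 27. The rise was Ch25h, which makes the oxysterol 25-hydroxycholesterol, at 0.994, 0.507 and 0.495 CPM in the controls and 66.3, 88.01 and 152 CPM at 12 h (log2 fold change 7.13 ± 0.48, adjusted p = 2.32e-10), and the fall was Dhcr7. Sqle and Idi1, enzymes of the synthesis itself, were at -0.15 ± 0.12 and 0.00 ± 0.19 and were not called. In the prostaglandin and leukotriene list (4 up and 6 down of 18), the inducible enzymes of prostaglandin E2 synthesis rose, Ptgs2 (COX-2) at 17.9, 16.7 and 29.2 CPM in the controls and 1926, 1971 and 1429 CPM at 12 h (log2 fold change 6.38 ± 0.21, adjusted p = 3.18e-15) and Ptges at 0.994, 4.05 and 3.96 CPM in the controls and 414, 412 and 669 CPM at 12 h (log2 fold change 7.35 ± 0.27, adjusted p = 2.56e-16). Hpgd, which breaks prostaglandins down, had 16.9, 20.3 and 21.8 CPM in the controls and 0, 0 and 0.52 CPM at 12 h, a pooled ratio of 109 (95% counting interval 19.1 to 4325) of control over 12 h. Ptgs1 (COX-1) and Alox5ap, the activator of 5-lipoxygenase, fell by 2.12 and 1.84, and Alox5 is listed at 0 counts in all 6 samples.

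Oxidant and antioxidant genes gave 11 up and 2 down of 41 (median 0.59). The oxidase subunit Cybb had 1508, 1598 and 1441 CPM in the controls and 5991, 6269 and 6614 CPM at 12 h (log2 fold change 2.05 ± 0.09, adjusted p = 2.65e-25) and its partner Ncf1 87.96, 67.9 and 90.1 CPM in the controls and 461, 433 and 279 CPM at 12 h (2.25 ± 0.18). Sod2, the mitochondrial superoxide dismutase, had 69.6, 66.9 and 59.9 CPM in the controls and 1975, 2072 and 2339.6 CPM at 12 h (log2 fold change 5.02 ± 0.11, adjusted p = 7.25e-38), and Slc7a11, the cystine importer, 28.3, 28.9 and 33.2 CPM in the controls and 1193, 1151 and 895 CPM at 12 h (log2 fold change 5.16 ± 0.14, adjusted p = 4.70e-32). Prdx5 and Txn1, a peroxiredoxin and thioredoxin, rose by 3.93 ± 0.10 and 2.38 ± 0.10. The glutathione peroxidase Gpx1 fell from 416, 402 and 386 CPM to 91.5, 90.9 and 92.6 CPM (log2 fold change -2.13 ± 0.10, adjusted p = 2.61e-23). Of 20 genes of iron handling, 4 rose and 6 fell. Slc40a1, ferroportin, the iron exporter, had 204, 214 and 190.5 CPM in the controls and 13.7, 15.8 and 15.6 CPM at 12 h (log2 fold change -3.75 ± 0.14, adjusted p = 1.18e-27), and Tfrc, the transferrin receptor, 157, 166 and 173 CPM in the controls and 28.9, 26.4 and 37.98 CPM at 12 h (log2 fold change -2.40 ± 0.14, adjusted p = 1.80e-20). Lcn2, which captures bacterial siderophores, had 0, 2.03 and 0 CPM in the controls and 384, 384 and 727 CPM at 12 h (log2 fold change 9.41 ± 0.55, adjusted p = 2.75e-08), with replicate 3 the highest.

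Of the list of acute-phase and defence proteins, 15 of 24 were up and none down, with a median of 4.20 (3.62 at the bounds). Clec4e, a membrane lectin on this list that senses mycobacterial cord factor, had 8.95, 7.09 and 11.9 CPM in the controls and 4499.6, 4589 and 4233 CPM at 12 h (log2 fold change 8.89 ± 0.15, adjusted p = 1.65e-41), and the secreted haptoglobin, Hp, 1.99, 1.01 and 0.495 CPM in the controls and 51.5, 41.1 and 123 CPM at 12 h (log2 fold change 5.88 ± 0.75, adjusted p = 3.63e-05). Complement gave 6 up and 1 down of 20. C3, the central component, had 7.45, 10.6 and 6.93 CPM in the controls and 1278, 1270.3 and 998 CPM at 12 h (log2 fold change 7.14 ± 0.16, adjusted p = 5.02e-37) and Cfb, which joins it in the alternative pathway, 0, 0 and 0.495 CPM in the controls and 1136, 1111 and 1389 CPM at 12 h, a pooled ratio of 7307 (95% counting interval 1311 to 288645). C3ar1, the receptor of C3a, was not called at 1284, 1302 and 1324 CPM in the controls and 374, 349 and 757 CPM at 12 h (-1.40), and was called down at -1.83 when replicate 3 at 12 h was left out. C1qa, of the classical pathway, had a log2 fold change of 0.97 ± 0.10 and was not called. Fc, C-type lectin and scavenger receptors were divided, 17 up and 13 down of 50 (median -0.26). Marco, a scavenger receptor for bacteria, was at 0 counts in the controls and at 145, 142 and 222 CPM at 12 h, at least 342-fold higher. Fcgr1, the high-affinity IgG receptor, had 48.7, 51.2 and 52.4 CPM in the controls and 582, 598 and 1021 CPM at 12 h (log2 fold change 3.85 ± 0.19, adjusted p = 1.33e-12). Mrc1, the mannose receptor, had 84.5, 79.04 and 71.7 CPM in the controls and 8.94, 9.97 and 6.24 CPM at 12 h (log2 fold change -3.22 ± 0.19, adjusted p = 5.71e-20), and Gas6, which bridges dying cells to TAM receptors, 324, 325 and 315 CPM in the controls and 16.8, 21.7 and 17.2 CPM at 12 h (log2 fold change -4.11 ± 0.14, adjusted p = 4.08e-29). Cd300lb and Trem2, receptors of lipids on dying cells, fell by 4.41 and 1.78, and Mertk, a TAM receptor, was not called at -0.43 ± 0.13.

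Of 78 lysosomal genes tested, 3 were called up and 9 down (median -0.37). These are 3.85% and 11.5%, beside 8.87% and 8.42% over all genes, so the counts are not read as particular to lysosomal genes. Without the limit on size, 39 had a false discovery rate of at most 0.01 with a lower level at 12 h. Against these, 21 had a higher level, beside 23.4% lower and 23.9% higher over all genes. Atp6v0d2 and Atp6v0a1, subunits of the proton pump, went from 566, 586 and 648 to 60.5, 84.5 and 61.4 CPM (log2 fold change -3.13 ± 0.12, adjusted p = 1.08e-27) and from 405, 388 and 353 to 56.8, 63.95 and 61.4 CPM (log2 fold change -2.65 ± 0.11, adjusted p = 5.29e-26). Ctsc, a protease that activates granule enzymes, had 93.4, 96.8 and 116 CPM in the controls and 2536, 2688 and 3110.1 CPM at 12 h (log2 fold change 4.76 ± 0.11, adjusted p = 4.97e-37). Cathepsin L, Ctsl, was not called at -1.20 ± 0.10, nor was Lamp1, an abundant membrane protein of lysosomes, at -0.17 ± 0.08. Autophagy showed no member up and 6 down of 39 (15.4%, beside 8.42% over all genes). Among the 6 was the kinase Ulk2, from 126, 139 and 150.4 to 38.9, 36.96 and 36.9 CPM (-1.88). Sqstm1, the autophagy receptor p62, was at 1.14 ± 0.09 and Map1lc3b at -0.91 ± 0.12, neither of them called.

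Inflammasome and pyroptosis genes gave 10 up and 2 down of 23 (median 1.33). Nlrp3, the sensor, had 12.9, 9.63 and 12.4 CPM in the controls and 185, 175 and 153 CPM at 12 h (log2 fold change 3.87 ± 0.15, adjusted p = 2.22e-27). Casp1, which cuts pro-interleukin-1β, had 51.2, 53.7 and 43.5 CPM in the controls and 263, 280.5 and 375 CPM at 12 h (log2 fold change 2.63 ± 0.12, adjusted p = 1.03e-23). Casp4, the LPS-sensing caspase known in mice as caspase-11, had 11.9, 15.2 and 14.3 CPM in the controls and 220.4, 189.5 and 236 CPM at 12 h (log2 fold change 3.96 ± 0.14, adjusted p = 1.58e-28). The pore former Gsdmd, which these caspases cut, had 60.1, 60.3 and 56.9 CPM in the controls and 243, 212 and 267 CPM at 12 h (log2 fold change 2.03 ± 0.11, adjusted p = 3.89e-21), and the groups overlapped for none of the 4. The sensor Nlrp1b fell by 1.87. Of 37 apoptosis and survival genes, 10 rose and 3 fell. Cflar, the inhibitor of caspase-8, had 78.02, 77.5 and 87.1 CPM in the controls and 1142, 1081 and 980.2 CPM at 12 h (log2 fold change 3.72 ± 0.10, adjusted p = 1.60e-33). Bcl2l11 (BIM) and Bmf, which promote death, fell, Bcl2l11 from 108, 118 and 134 to 15.3, 11.1 and 10.4 CPM (log2 fold change -3.28 ± 0.17, adjusted p = 1.62e-22) and Bmf from 33.3, 15.2 and 31.7 to 7.36, 2.93 and 3.64 CPM (log2 fold change -2.49 ± 0.32, adjusted p = 6.78e-09). The survival genes Bcl2a1a, Bcl2a1b and Bcl2a1d rose by 6.78, 1.79 and 4.50, and as near-identical copies they are uncertain as single genes.

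Cell division genes fell at low levels. Of 56 mitosis genes tested, 30 were downregulated and 1 upregulated, with a median log2 fold change of -1.68 beside -0.03 over all genes. The count of mitosis members down was 14 with the interleukin-4 samples at 12 h as the reference, 6 with the cutoff as the null hypothesis and 1 with the filter of at least 10 counts in every sample, which few of these low genes pass. Top2a, which untangles DNA, had 19.9, 18.2 and 17.8 CPM in the controls and 6.84, 4.11 and 3.64 CPM at 12 h (log2 fold change -1.92 ± 0.31, adjusted p = 8.99e-07). Ccnb2, a mitotic cyclin, had 7.95, 10.1 and 10.9 CPM in the controls and 1.58, 0.587 and 1.56 CPM at 12 h (log2 fold change -2.87 ± 0.49, adjusted p = 2.22e-06), and Ccnb1 9.44, 10.1 and 8.91 CPM in the controls and 2.63, 4.69 and 1.56 CPM at 12 h (log2 fold change -1.69 ± 0.42, adjusted p = 6.40e-04, and -1.36 without replicate 3 at 12 h, which is short of the cutoff). Ncapg2, a condensin II subunit, had a higher level, at 90.9, 102 and 102 CPM in the controls and 8.94, 10.6 and 10.4 CPM at 12 h (log2 fold change -3.30 ± 0.17, adjusted p = 1.67e-22). Pttg1, securin, was the member that rose, from 18.9, 9.63 and 10.9 to 58.4, 61.02 and 58.3 CPM (log2 fold change 2.16 ± 0.20, adjusted p = 2.29e-13). Mki67, the usual marker of cycling cells, was not called and spread widely at 12 h, at 29.3, 29.4 and 26.7 CPM in the controls and 48.9, 38.1 and 17.7 CPM at 12 h (log2 fold change 0.29 ± 0.22), and Cdk1 was not called at -0.85 ± 0.25. DNA replication genes gave 2 up and 9 down of 58 (median -0.71), or 4 down against the interleukin-4 samples. The 2 and 9 are 3.45% and 15.5%, beside 8.87% and 8.42% over all genes. The transcription factor E2f2 had 7.95, 13.2 and 7.42 CPM in the controls and 0.526, 1.17 and 0.52 CPM at 12 h (log2 fold change -3.60 ± 0.53, adjusted p = 9.35e-08). Pcna, the sliding clamp, and Mcm5, a subunit of the helicase, were not called at -0.77 ± 0.11 and -0.59 ± 0.19. Of 28 cyclins and CDK inhibitors, 5 rose and 6 fell. Ccnd2, cyclin D2, had 4.47, 3.55 and 4.45 CPM in the controls and 96.8, 80.4 and 42.1 CPM at 12 h (log2 fold change 4.11 ± 0.33, adjusted p = 2.98e-10), and Cdkn1c, the inhibitor p57, 21.4, 37.5 and 24.7 CPM in the controls and 0, 2.93 and 1.04 CPM at 12 h (log2 fold change -4.39 ± 0.41, adjusted p = 3.68e-13). Cdkn1a, the inhibitor p21, was not called at 1.30 ± 0.15.

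The promoter of Top2a is shown for the letters that mitotic genes are known to share, with capitals on matches to TTTGAA on either strand, the core of the cell cycle genes homology region (CHR).
Top2a, chr11:99024190-99024398, minus strand: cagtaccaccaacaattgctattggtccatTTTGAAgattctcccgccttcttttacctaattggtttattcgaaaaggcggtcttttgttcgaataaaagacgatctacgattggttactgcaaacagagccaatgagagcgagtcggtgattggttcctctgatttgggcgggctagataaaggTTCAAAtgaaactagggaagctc
The matches began 179 and 23 bases before the start. This core was in 22 of 51 windows of the mitosis list (43.1%), against 11.8% of windows of all downregulated genes, 9.74% of genes tested and not called and 15.99% of all windows. The letters CCAAT, searched on both strands, were in 38 of the 51 (74.5%) against 35.6%, 35.0% and 33.8%. Windows of other lists held both as well. The CHR core was in 5 of 11 windows of the guanylate-binding proteins and immunity-related GTPases and in 9 of 24 of the acute-phase and defence list, and CCAAT in 26 of 37 windows of the unfolded protein response list and 14 of 20 of MHC class I.

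The machinery of protein synthesis gave few calls. Of 74 ribosomal protein genes, 0 passed the cutoffs (median -0.09). Rpl3 was at 611, 563 and 573 CPM in the controls and 387, 422 and 397 CPM at 12 h (-0.54) and Rps6 at 214, 195 and 204 CPM in the controls and 218, 212 and 202 CPM at 12 h (0.04). The ribosome biogenesis list had a median of 0.25, with Nop58, Ncl and Fbl at 0.50 ± 0.24, -0.50 ± 0.15 and 0.37 ± 0.19. Wars, the tryptophan-charging enzyme, was the upregulated member of 20 aminoacyl-tRNA synthetases, at 26.3, 25.8 and 14.8 CPM in the controls and 76.8, 57.5 and 68.2 CPM at 12 h (1.60, and 1.38 without control replicate 3). In the unfolded protein and integrated stress response, 5 of 38 rose and none fell (median 0.54), and Eif2ak2, the antiviral kinase PKR, led with 12.4, 10.6 and 8.41 CPM in the controls and 138, 134 and 108 CPM at 12 h (log2 fold change 3.58 ± 0.18, adjusted p = 6.26e-23). Hspa5 (BiP), Atf4 and Ddit3 (CHOP) were not called at 1.37 ± 0.10, 1.03 ± 0.11 and 0.83 ± 0.20, and Hspa5 was called up when replicate 3 at 12 h was left out, at 1.51. Of 29 heat shock genes, 7 rose and 1 fell. Hsp90aa1, an inducible cytosolic chaperone, had 81.5, 82.6 and 77.7 CPM in the controls and 285, 303 and 223 CPM at 12 h (log2 fold change 1.74 ± 0.11, adjusted p = 6.73e-19), and the near-identical Hspa1a and Hspa1b rose by 4.65 ± 0.48 and 4.35 ± 0.48 from at most 0.994 CPM in any control.

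Regulators and surface genes of the resting macrophage moved in both directions. Of 52 macrophage transcription factors, 6 rose and 8 fell (median -0.27). These are 11.5% and 15.4%, beside 8.87% and 8.42% over all genes, so the counts are not read as particular to these factors. Cebpa, which drives myeloid differentiation, had 389.6, 399 and 455 CPM in the controls and 42.6, 46.4 and 34.9 CPM at 12 h (log2 fold change -3.33 ± 0.12, adjusted p = 5.61e-28), and Cebpb, a factor of activated macrophages, rose by 2.16 ± 0.17. Spi1 (PU.1), the lineage factor, and Irf8 were not called at 1.02 ± 0.09 and -1.22 ± 0.13. Of 13 markers of alternative activation tested, 4 fell (Pparg, Egr2, Mrc1 and Clec7a) and 2 rose (Ccl22 and Il1rn, which are also induced by LPS). Chil3 was not called at -0.67 ± 0.54, and Retnla is listed at 0 counts in all 6 samples. Integrins, matrix genes and proteases gave 9 up and 9 down of 46. Itgal, the α chain of LFA-1, had 170.0, 171 and 186 CPM in the controls and 1191, 1195 and 837 CPM at 12 h (log2 fold change 2.61 ± 0.12, adjusted p = 1.55e-20), and Itga6, a laminin receptor, 285, 358 and 315 CPM in the controls and 12.6, 15.3 and 26.01 CPM at 12 h (log2 fold change -4.14 ± 0.15, adjusted p = 4.81e-28). Matrix proteases also went opposite ways. The collagenase Mmp13 had 6.96, 6.08 and 5.44 CPM in the controls and 391, 453 and 816 CPM at 12 h (log2 fold change 6.48 ± 0.37, adjusted p = 1.51e-08), with replicate 3 the highest, and the macrophage elastase Mmp12 589, 648 and 475 CPM in the controls and 45.2, 43.4 and 51.5 CPM at 12 h (log2 fold change -3.61 ± 0.12, adjusted p = 1.69e-29). Both adenosine receptors known to curb activated macrophages rose. Adora2a had 0, 0 and 0.495 CPM in the controls and 129, 113 and 98.3 CPM at 12 h, a pooled ratio of 682 (95% counting interval 122 to 26997), and Adora2b 0.994, 1.01 and 1.48 CPM in the controls and 86.8, 85.1 and 103 CPM at 12 h (log2 fold change 6.22 ± 0.27, adjusted p = 2.49e-25). Entpd1 (CD39), which clears extracellular ATP, fell from 394, 367 and 436 to 111, 119 and 134 CPM (-1.72), and P2ry1, a receptor of ADP, by 3.67.

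Of 63 histone and DNA modifying enzymes, 4 were called up and 1 down (median -0.24), or 6.35% and 1.59% beside 8.87% and 8.42% over all genes. Without the limit on size, 15 had a false discovery rate of at most 0.01 with a higher level at 12 h and 22 with a lower level, against 23.9% and 23.4% of all genes. Setdb2, a histone H3 lysine 9 methyltransferase, had 5.96, 6.08 and 8.41 CPM in the controls and 48.9, 61.02 and 63.5 CPM at 12 h (log2 fold change 3.07 ± 0.22, adjusted p = 4.16e-17). Kdm4a, a demethylase of the same residue, had 27.8, 25.8 and 21.3 CPM in the controls and 112, 158 and 90.01 CPM at 12 h (log2 fold change 2.25 ± 0.16, adjusted p = 2.77e-15). Kdm6b, which removes the repressive mark on lysine 27, had 2.98, 3.04 and 3.96 CPM in the controls and 15.3, 9.97 and 7.28 CPM at 12 h (1.69, and 1.36 without replicate 1 at 12 h). Hdac5, a histone deacetylase, fell from 94.9, 100.3 and 94.5 to 15.3, 15.3 and 17.7 CPM (log2 fold change -2.58 ± 0.17, adjusted p = 1.73e-18), and Hdac1 and Tet2 were not called at 1.27 ± 0.18 and 1.15 ± 0.14. Solute carriers numbered 20 up and 23 down of 169 (median -0.09), or 11.8% and 13.6%, beside 8.87% and 8.42% over all genes. Slc1a2, a glutamate transporter, had 0, 0.507 and 0.495 CPM in the controls and 96.2, 107 and 96.8 CPM at 12 h, a pooled ratio of 299 (95% counting interval 82.5 to 2478), and Slc28a2, a nucleoside transporter, 10.9, 11.1 and 6.93 CPM in the controls and 144, 119 and 231 CPM at 12 h (log2 fold change 4.09 ± 0.31, adjusted p = 1.89e-08). Slco2b1, an organic anion transporter, had 11.9, 10.1 and 12.4 CPM in the controls and none at 12 h, at least 21.2-fold lower, and Slc46a3, a lysosomal transporter, 50.7, 57.8 and 48.5 CPM in the controls and 1.05, 1.76 and 2.08 CPM at 12 h (log2 fold change -4.95 ± 0.29, adjusted p = 3.56e-20).

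To place 12 h among the neighbouring times, it was set directly against 4 h and 24 h of LPS after priming, in the same fit. At 12 h, 498 genes were higher than at 4 h (5.2% of those tested) and 426 were lower (4.45%), while 83 were higher than at 24 h (0.867%) and 40 lower (0.418%). Of 35 cytokine genes, 14 were lower at 12 h than at 4 h and 1 was higher. Tnf had a mean of 9776 ± 489 CPM (± SD, n = 3) at 4 h and 1684 ± 176 CPM at 12 h, a log2 difference of -2.54 (adjusted p = 5.88e-28). Ptgs2 and Cxcl10 were also lower than at 4 h, by 1.81 and 1.78 on the log2 scale. In contrast, 13 of 50 Fc, lectin and scavenger receptors were higher at 12 h than at 4 h and 5 lower. Marco had a mean of 5.85 ± 1.100 CPM at 4 h, 169 ± 45.2 CPM at 12 h and 637 ± 48.2 CPM at 24 h. The acute-phase and defence list had 7 members higher and 4 lower than at 4 h, and Saa3 rose from 857 ± 60.2 CPM at 4 h to 13716 ± 4069 CPM at 12 h (log2 difference 4.00, adjusted p = 3.06e-15). No member of the guanylate-binding protein and immunity-related GTPase list differed from 4 h past the cutoffs. Ptges, downstream of Ptgs2, was higher at 12 h than at 4 h, at 498 ± 148 CPM and 47.3 ± 4.99 CPM (3.40 on the log2 scale, adjusted p = 1.07e-12).

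**Figure D5:**
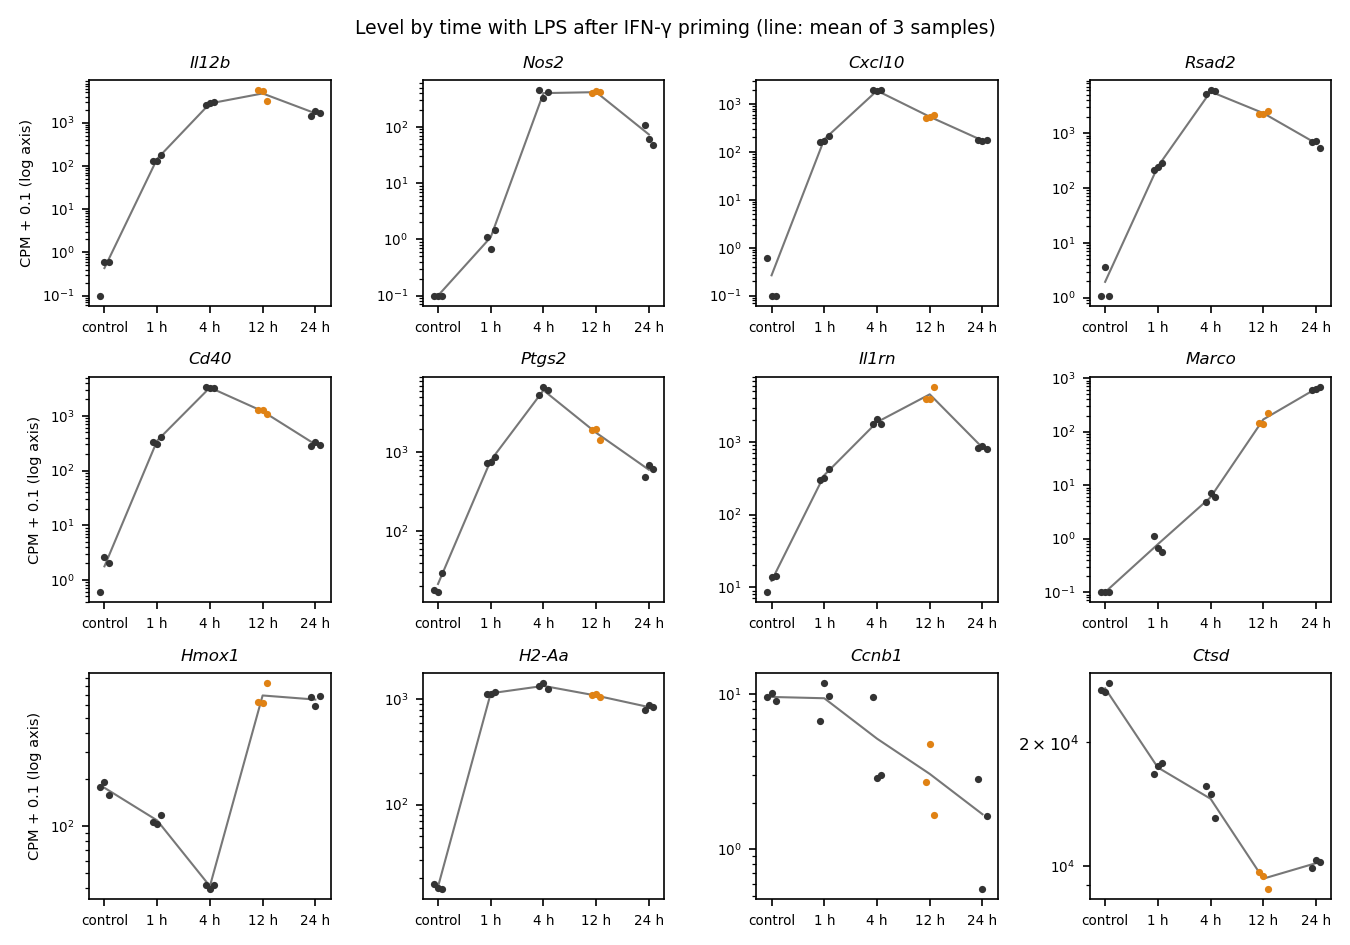
Level of 12 genes as CPM + 0.1 on a log axis in every control sample and at 1, 4, 12 and 24 h of LPS after IFN-γ priming (3 samples each, 12 h in orange, line through the means). The hours on the horizontal axis are evenly spaced and not to scale, Cxcl10, Rsad2, Cd40 and Ptgs2 are highest at 4 h, Il12b and Il1rn at 12 h, Marco at 24 h, and Hmox1 is lowest at 4 h.

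The control was labelled as cultured for 4 h, and the 3 samples kept for 12 h with interleukin-4 (10 ng/ml), and the 3 with interleukin-13 (10 ng/ml), were the other BMDMs analysed here at 12 h without LPS. In a fit of all 21 BMDM samples, Il12b and Nos2 had no count with either cytokine, and Saa3 was at 3.23 ± 0.637 CPM (± SD, n = 3) with interleukin-4 and 1.87 ± 0.531 CPM with interleukin-13, against a mean of 14745 CPM at 12 h of LPS. Among falls, Cxcr4 had means of 351 CPM in the control, 251 ± 5.06 and 243 ± 26.6 CPM with the cytokines and 11.8 CPM with LPS, and Ctsd 28182, 27697 ± 1249, 25704 ± 1429.6 and 9969.8 CPM in the same order. Mitotic Top2a was in between, at 19.4, 10.04 ± 3.504, 10.2 ± 3.01 and 5.202 CPM, and so was ferroportin, Slc40a1, at 211, 45.4 ± 8.58, 38.5 ± 7.33 and 16.1 CPM. With the interleukin-4 samples as the reference, 885 genes were up and 734 down, of which 754 and 570 were shared with the 849 and 806. Of the genes named above, Top2a (-0.95), Slc40a1 (-1.496), Ccnb1 (-0.99), Ctsd (-1.47), Gpnmb (-1.24), Sepp1 (-0.73) and Entpd1 (-1.13) were among those no longer past the cutoffs on the log2 scale, as were 16 of the 30 mitosis genes, and Cx3cr1 changed direction (0.97, not called). Rises that lost their call against this reference included Kdm6b (0.66), Slc2a1 (0.74), Junb (1.33), Nampt (1.43) and Hsp90aa1 (1.48). Interleukin-4 is itself a stimulus of macrophages, so the share of each change that comes with culture time was not tested.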

How the data were processed

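RNA of BMDMs was sequenced after ribosomal RNA depletion with a directional kit (the molecule label reads polyA RNA). Per the labels, CASAVA 1.8.2, Trimmomatic 0.33, STAR 2.5.1 and DESeq2 were used on mm10, and the authors deposited STAR's counts of uniquely mapped reads per gene, 1 file per sample. The column for the strand of the gene was used. Reads of near-identical copies were left uncounted, so such genes read low. The 4 summary lines that name no gene were left out, and reads on no feature made up 66.2% to 66.8% of control and 64.8% to 66.5% of 12 h sense columns. Rn45s was removed. Groups came from the sample labels.

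Counts were fitted in R 4.3.3 with edgeR 4.0.16 (filterByExpr, TMM, robust quasi-likelihood, 1 mean per group) over 15 samples, the control and 1, 4, 12 and 24 h, which share their estimate of spread. CPM (counts per library of 1e6) are TMM-normalized, and 1 count was worth about 0.5 CPM. Alternatives were DESeq2 1.42.0, RLE factors, other filters, unstranded counts, a replicate block, other sample sets, Rn45s kept, the cutoff as the null hypothesis, interleukin-4 samples as the reference and each replicate left out. Those for 4 h and 24 h were chosen after seeing the data. Scripts were tested on simulated data.

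The comparison and the gene lists were chosen with earlier results of these data known. Named genes were the 12 largest rises and 12 largest falls without overlap of samples at 20 CPM or more, the 6 highest in each direction, key members of each list, and the 2 largest rises and falls of each list. Other genes printed were chosen after their values were seen. Promoters are the 250 bases before each RefSeq start on GRCm38.p6.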

Additional observations from a re-analysis of the deposited data

Results flagged for a closer look

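Several results at 12 h differed from the same contrast at a neighbouring time, tested directly in the edgeR fit with Benjamini-Hochberg adjustment. Values are log2 differences of 12 h minus 24 h unless stated, and the contrasts at 12 h and 24 h share the control. Among genes of inflammation and costimulation, Il12b was higher at 12 h than at 24 h by 1.52, Nos2 by 2.51, Il1rn by 2.44, Cd40 by 2.01, Cd86 by 1.61, Ptgs2 by 1.56 and Cxcl10 by 1.65. Of these, Il1rn fell from a mean of 4560 CPM at 12 h to 839 CPM at 24 h and Nos2 from 414 to 73.1 CPM. Antiviral and interferon-inducible genes had Rsad2 at 1.83, Mx1 at 1.52, Gbp4 at 1.72 and Ch25h at 1.69. Sugar metabolism had Pfkfb3 at 1.64 and Slc2a6 at 1.59. Of the genes named by the rule, those higher at 12 h than at 24 h also included Ccnd2 (1.60), Entpd1 (1.69), the matrix proteases Mmp25 (4.05) and Mmp13 (2.21), and the heat shock genes Hspa1a (2.87) and Hspa1b (2.57). Mmp25 was at 8.21 CPM at 12 h and 0.434 CPM at 24 h, so its difference rests on few counts. Named genes lower at 12 h than at 24 h were Marco (-1.91), the protease inhibitor Slpi (-2.44), Tmem37 (-2.63) and Trim47 (-2.32). Tmem37 was at 62.6 CPM in the control, 23.1 CPM at 4 h, 1.09 CPM at 12 h and 7.05 CPM at 24 h. Hmox1, heme oxygenase 1, was below the control at 4 h and above it at 12 h, with means of 177 CPM in the control, 41.1 CPM at 4 h, 693 CPM at 12 h and 652 CPM at 24 h, and 12 h minus 4 h was 4.08 (adjusted p = 2.05e-29).

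Counts on the strand opposite to a gene were not part of the comparisons. For 6 genes these summed to at least 100 over the 3 samples at 12 h, outnumbered the sense counts and, as CPM on the scale of the sense libraries, were higher in every sample than in any control and at least 3 times the controls' mean. Raw counts over the 3 samples follow. Gm14023 had 4529 antisense counts at 12 h against 4 in the controls, with 31 and 0 sense counts. E230013L22Rik had 243 against 36, Ccdc167 232 against 51, Rab10os 169 against 39, Crybg3 127 against 45 and Zmynd15 512 against 141, and Zmynd15 rose on its own strand too, from 32 to 148 counts. Whether transcripts of neighbouring genes on the other strand gave these counts was not tested.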

How the results depend on the processing

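The counts of 849 genes up and 806 down stayed within 1.5 times under DESeq2 (846 and 772), RLE size factors (851 and 793), no filter beyond 1 count (953 and 978), unstranded counts (856 and 809), the 6 samples alone (782 and 771), all 21 BMDM samples (864 and 833), Rn45s kept (863 and 788) and interleukin-4 samples as the reference (885 and 734), and they ran from 865 to 869 and from 812 to 873 with a replicate left out. The filter of at least 10 counts in every sample left 446 and 305 of 6458 genes tested, and the cutoff as the null hypothesis 621 and 354, which moved the upregulated share of calls from 51.3% to 59.4% and 63.7%. Against 4 h, the filter left 124 genes higher and 192 lower, and the cutoff as the null hypothesis 128 and 156, beside 498 and 426, with 444 to 510 and 434 to 452 when a replicate was left out. Against 24 h, these settings left 20 and 5 higher and 4 and 0 lower, beside 83 and 40, DESeq2 called 26 lower, and leaving out a replicate gave 75 to 89 and 37 to 57. At an unadjusted p under 0.05, edgeR's test with the cutoff as the null hypothesis gave 29 genes lower than at 24 h. The 6 samples alone and the interleukin-4 reference give no value at 4 h and 24 h. Of 252 genes that the naming rule chose, 205 were called, and 164 of these kept their call and direction in every alternative that gave them a value. The filter of at least 10 counts in every sample gave no value for many of the 252. Under it 135 were unchanged, 1 gained a call and 3 lost it. With interleukin-4 samples as the reference, 23 lost their call, and Cx3cr1 changed sign to 0.97 and Trib3, a stress-induced pseudokinase, to -1.51, and the cause was not tested. Of 88 counts of list members up or down, 41 fell by over 1.5 times with at least 10 counts in every sample, 26 with the cutoff as the null hypothesis and 13 with the interleukin-4 reference, which raised 11 others. A block on replicate number gave 849 and 812 genes, and no named gene changed its call. The correlation of deviations of same-numbered samples was 0.0044, -0.022 and -0.070, so the numbers were not taken to pair the samples. Depth limits low genes such as the mitotic cyclins.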

Other observations

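A set of 4 gene groups outside the lists was set apart after their values were seen, so the counts are descriptions with no test of a group. Over all genes tested, 8.87% were called up and 8.42% down. Of 42 replication-dependent histone genes tested, 26 were called down and 0 up, with a median log2 fold change of -1.67, and 38 had a false discovery rate of at most 0.01 with a lower level at 12 h. Such transcripts carry no poly(A) tail and are known to peak while DNA is copied. The labels give the molecule as polyA RNA while the protocol describes ribosomal RNA depletion, and how far either selection set these counts was not tested. Hist1h2af had 53 counts over the controls and 0 at 12 h, at least 16.3-fold lower, Hist1h1b had a log2 fold change of -4.02 and Hist1h3c of -3.69. As near-identical copies they are uncertain as single genes. Beside them, 9 of 58 DNA replication genes were called down.

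Of 33 constitutive proteasome subunits, 7 were called up and 0 down, with a median of 1.22, and 29 had a false discovery rate of at most 0.01 with a higher level at 12 h. Psma6 stood at 2.55 and Psma5 at 2.29 on the log2 scale. The MS4A family of membrane proteins had 4 of 5 tested members up, with Ms4a6d at 3.91, Ms4a6c at 4.31, Ms4a6b at 4.59 and Ms4a4c at 2 counts over the controls and 4518 at 12 h. Its 11 other members, of 16, were too low to be tested. The Ly6 family of surface proteins had 4 of 4 tested members up, with Ly6e at 4.89, Ly6a at 6.43, Ly6c2 at 2 counts over the controls and 663 at 12 h, and Ly6i, absent from the controls, at least 45.6-fold higher. The 5 other members, of 9, were too low to be tested. The filter keeps a gene that is high in only 1 group, so Ms4a4c, Ly6a, Ly6c2 and Ly6i, low or absent in the controls, could hardly be called down. The 2 counts are therefore not read as a trait of either family.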
